A study of Mus musculus with 28 samples.

Results

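The comparison described here asked whether cortex without Rbm5 responds less or more to a mechanical brain injury. For each gene the change with injury in wild type mice (WT) was subtracted from the change with injury in Rbm5 knockout mice (KO), which gives 1 value per gene, (KO-CCI minus KO-Sham) minus (WT-CCI minus WT-Sham). All 28 arrays of the series enter that value, 7 in each of 4 groups. KO-CCI mice were Rbm5 knockouts given a controlled cortical impact (CCI), KO-Sham mice were knockouts given anaesthesia without impact, WT-CCI mice were wild types given the impact, and WT-Sham mice were wild types given anaesthesia without impact. Cortical tissue was taken 48 h later from mice aged 12 to 15 weeks of both sexes (3 males in KO-CCI, 4 in KO-Sham, 3 in WT-CCI and 3 in WT-Sham), and total RNA was hybridised to MTA 1.0 arrays. Every array is 1 animal. Injured animals received a craniotomy over the left parietal cortex and an impact at 6 m/s to a depth of 1.2 mm, whereas sham animals had no craniotomy, so the effects of the craniotomy and of the impact cannot be told apart. The deleted part of Rbm5 and the cells that carry the deletion are not given in the sources used here.

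CCI drives a piston into the exposed cortex and leaves a contusion. In the days that follow, astrocytes and microglia in the surrounding tissue become reactive, blood-borne monocytes and neutrophils enter, glial and immune cells divide, and transcripts of neurons fall. Rbm5 encodes an RNA-binding protein that takes part in early spliceosome assembly and alters the splicing of apoptosis genes. A negative difference here means that a rise with injury was smaller in KO, or that a fall was larger. Because the tissue is bulk cortex, fewer cells of a type and less RNA per cell cannot be told apart.

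The targeted gene came first, to test the genotype labels. Rbm5 was lower in KO, and its lowest, median and highest log2 signals were 9.71, 9.74 and 9.80 in KO-CCI, 9.66, 9.78 and 9.84 in KO-Sham, 10.59, 10.65 and 10.79 in WT-CCI and 10.70, 10.78 and 10.82 in WT-Sham. No KO array overlapped a WT array of the same procedure. The genotype difference was -0.91 after CCI (limma adjusted p = 8e-15) and -1.02 after sham (adjusted p = 5.6e-16). Probes outside a deleted part can still give signal, so the level left in KO is no measure of residual function. The injury changes of Rbm5 itself were -0.012 in KO and -0.12 in WT, and they differed by 0.10 (95% interval -0.007 to 0.22, adjusted p = 0.813).

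On 28 of 28 arrays the labelled sex fitted the Xist and Y-linked signal. Array medians lay between 5.79 and 5.90 on the log2 scale, and the median negative control was at 6.64. The 95th percentile of the negative controls lay between 10.16 and 10.43 by array. A gene called bright below, above the median control, can thus still lie within the spread of the controls. Tissue sampling differed between arrays. The mean signal of 11 striatal genes was above 8, or that of 10 choroid plexus genes above 6.7 (limits set after the values were seen), on 2 KO-CCI arrays (replicates 22 and 40), 4 WT-CCI arrays (13, 14, 16 and 35) and 1 WT-Sham array (25). Neither tissue belongs to the cortex. Leaving these out keeps 5 KO-CCI, 7 KO-Sham, 3 WT-CCI and 6 WT-Sham arrays, and values without them are given for the differences that moved by more than 1.5 times. The array titles also fall into 2 runs of numbers, 1 to 24 and 25 to 42, with 4 and 3 arrays of each group. The labels do not say what separates the runs, and within-run differences of plain group means are given for the lists and for some genes, numbers 1 to 24 before numbers 25 to 42.

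No transcript cluster, the array's unit for a gene, passed the test for a difference between the injury changes. At a limma adjusted p under 0.05 over 65956 tested clusters, 0 were called (0.0%), and 4097 had an unadjusted p under 0.05 (6.21%). The injury itself called 11017 clusters in KO (16.7%) and 11094 in WT (16.8%), and the genotype called 431 clusters after CCI (0.653%) and 847 after sham (1.28%). The same KO-Sham and WT-CCI arrays enter several of these contrasts, so the contrasts are not independent of each other. The median standard error of the difference was 0.098 over 30610 named genes. In simulated data with 50 changed clusters per size, a difference of 0.25 on the log2 scale was called for 4% of them, 0.5 for 40%, 1 for 92% and 1.5 for 100%. In that setting small and moderate differences were mostly missed, and a p that misses the threshold does not show equal responses. The changed clusters were drawn at random from all tested clusters, whose median standard error was 0.118. All other clusters were left unchanged, and noise was drawn separately for each cluster. Rates under a shift of many genes, or under noise that genes on 1 array share, were not tested. The rates do not carry over to genes that vary more, such as Gfap and Serpina3n with standard errors of 0.443 and 0.483. For such genes large differences could be missed too.

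Among clusters with an unadjusted p under 0.05, 1538 were negative (2.33% of those tested) and 2559 positive (3.88%). The sign followed how bright a gene was. Of all tested clusters, 44.0% had a difference below 0, and of named genes 46.1%, but of the 13454 genes brighter than the median negative control 62.0% did, and of the dimmer ones 33.7%. The median difference was -0.029 in these brighter genes and 0.043 in the 17156 genes at or below that level. In the dimmest 10% of genes the median was 0.041 and 35.3% were below 0, and in the next to brightest 10% it was -0.041 and 67.7% were below 0. This split depended on the scaling of the arrays. After quantile normalization 51.9% of the bright and 50.3% of the dim genes were below 0, and with arrays centred on their medians 75.2% and 47.3% were. Counts of members with a negative difference are therefore read against 62.0% for bright and 33.7% for dim genes in the values as deposited.

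**Figure D1:**
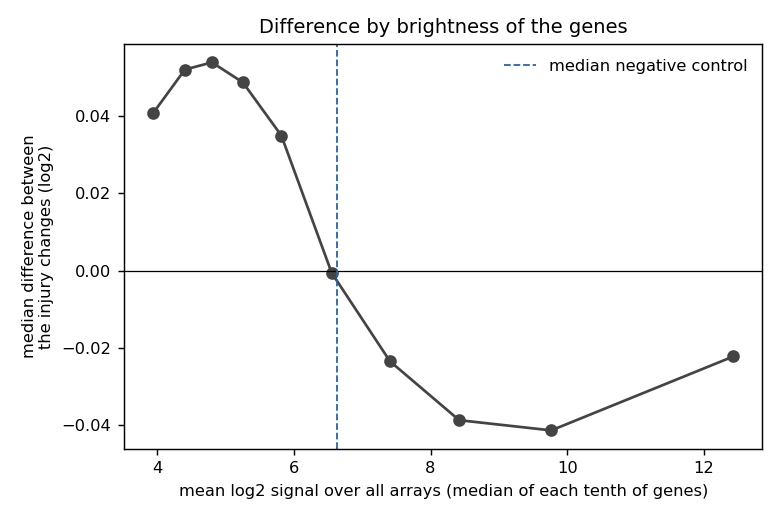
Median difference between the injury changes (KO minus WT, log2) in each of 10 equal groups of the 30610 named genes, against the median of their mean log2 signal over all arrays. The dashed line marks the median negative control at 6.64, left of which 5 of 6 medians are above 0 and right of which all 4 are below 0, a split that was not seen after quantile normalization.

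The genes with the strongest response to injury are the place where a weaker or stronger reaction would be largest. The 100 protein-coding genes raised most by the mean of the changes in both genotypes all rose by at least 1.44 on the log2 scale by that mean. Choosing on the mean favours neither genotype only where the changes of both vary equally. The SDs given below were unequal between the groups, and the effect of this on the choice of genes was not tested. Of these 100, 91 had a smaller change in KO (90 after quantile normalization and 92 with centred arrays, with the 100 chosen anew in each). The median change was 1.90 in KO and 2.16 in WT, the median difference -0.27 and the median ratio of the KO change to the WT change 0.876. None of the 100 was called for the difference (smallest adjusted p = 0.744), and 9 had an unadjusted p under 0.05, all with a smaller change in KO. The mean log2 signal of the 100 was 9.56 ± 0.26 in KO-CCI, 7.39 ± 0.12 in KO-Sham, 9.73 ± 0.35 in WT-CCI and 7.27 ± 0.036 in WT-Sham (SD, n = 7 each). The array ranges overlapped between the genotypes after each procedure, 9.18 to 9.85 in KO-CCI against 9.34 to 10.20 in WT-CCI, and 7.24 to 7.58 in KO-Sham against 7.21 to 7.31 in WT-Sham.

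The smaller change in KO came from both ends. After CCI 90 of the 100 genes were lower in KO (median -0.18) and after sham 82 were higher in KO (median 0.095). The size differed between the runs of title numbers. The median difference was -0.10, with 68 genes smaller in KO, for numbers 1 to 24, and -0.49, with 95 genes smaller, for numbers 25 to 42. Without the 7 arrays with high striatal or choroid plexus signal the 100 genes were chosen anew, and their median was -0.64 and the ratio 0.762. The effect of the new choice on these values was not tested. In their group, the 4 WT-CCI arrays left out had the lowest means of the 100 genes chosen on all arrays (9.34, 9.67, 9.39 and 9.46). The 3 kept, replicates 15, 34 and 36, had the highest (10.11, 9.92 and 10.20). KO-CCI lost replicates 22 (9.72) and 40 (9.35). Every value given without the 7 arrays thus sets KO against the 3 WT-CCI arrays where these genes were highest. The part of tissue sampling and of the runs in this result was not tested.

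The 100 genes lowered most gave another picture. Of these, 48 had a smaller fall in KO (58 after quantile normalization and 39 with centred arrays, with the 100 chosen anew in each). Over the 100 lowered genes the median ratio was 1.00 and the median difference -0.005, with median changes of -0.79 in KO and -0.81 in WT. Within the runs, 32 had a smaller fall in KO for numbers 1 to 24 and 66 for numbers 25 to 42. The mean log2 signal of the lowered genes was 9.73 ± 0.10 in KO-CCI, 10.55 ± 0.059 in KO-Sham, 9.77 ± 0.15 in WT-CCI and 10.60 ± 0.073 in WT-Sham.

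**Figure D2:**
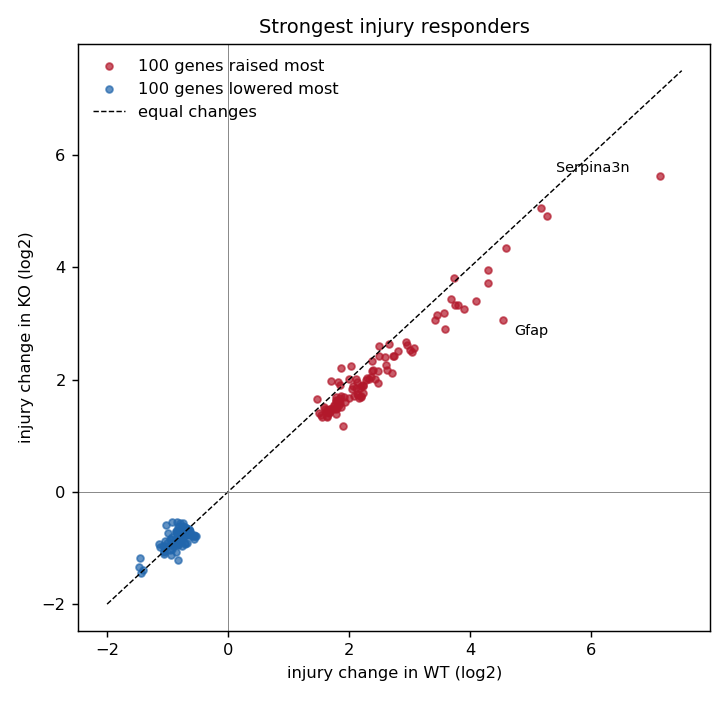
Injury change in KO (vertical axis, log2) against injury change in WT (horizontal axis, log2) for the 100 genes raised most (red) and the 100 lowered most (blue) by the mean of both changes; each point is 1 gene. Of the raised genes 91 lie below the dashed line of equal changes, Gfap and Serpina3n farthest, and the lowered genes lie around it.

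Lists of cell type markers and response genes were then read 1 by 1. Of 480 measured genes in 28 lists, none was called (smallest adjusted p = 0.713), 313 had a negative difference, 34 of them with an unadjusted p under 0.05, and 11 had a positive difference at that level. The median was negative in 24 of the 28 lists, and 25 list medians kept their sign both after quantile normalization and with centred arrays. These signs are to be read against medians of -0.029 over all bright genes and 0.043 over all dim genes. Within the runs of title numbers the direction was less uniform, with a negative median in 16 of the 28 lists for numbers 1 to 24 and in 22 for numbers 25 to 42, and opposite signs in 16. Of the 88 genes that the naming rule gave, 50 had a difference that moved by more than 1.5 times without the 7 arrays, 38 of them away from 0, 4 towards 0 and 8 across it. Some genes stand in more than 1 list. The list medians run between -0.51 for mature oligodendrocytes and 0.20 for choroid plexus.

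**Figure D3:**
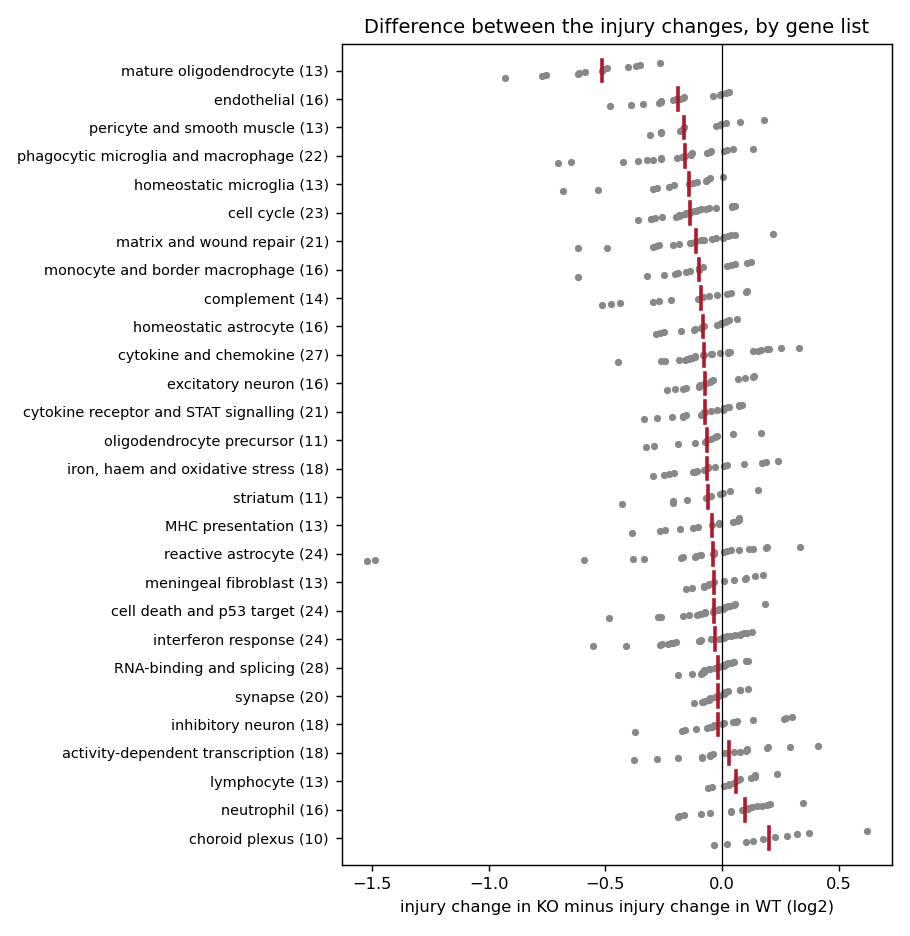
Difference between the injury changes (KO minus WT, log2, horizontal axis) for each measured member (grey points) of the 28 gene lists, with the median of each list as a red bar and the number of members in brackets. The mature oligodendrocyte list has its median at -0.51 with 13 of 13 points below 0, and the choroid plexus list has the highest median at 0.20.

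Mature oligodendrocytes, which wrap axons in myelin, gave the lowest list median. All 13 measured genes of 15 had a negative difference, 10 of them at an unadjusted p under 0.05, against 2.33% of all clusters, bright and dim. All 13 were bright, and that share was not counted for bright genes alone. The 13 were read on the same arrays, so they are not 13 separate results. The median injury change was -0.11 in KO and 0.49 in WT. The ratio of the KO fold to the WT fold lay between 0.524 and 0.831. The mean log2 signal of the 13 genes was 10.85 ± 0.39 in KO-CCI, 10.71 ± 0.20 in KO-Sham, 11.14 ± 0.089 in WT-CCI and 10.45 ± 0.20 in WT-Sham. The KO mean lay above the WT mean after sham and below it after CCI in all 13, of which only Mbp after CCI passed the test. The spread was widest in KO-CCI, where the list mean ran between 10.11 and 11.26.

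Mobp, a small basic protein of the myelin sheath, had the smallest p in the list. Its lowest, median and highest log2 signals were 12.20, 13.23 and 13.83 in KO-CCI, 12.97, 13.13 and 13.73 in KO-Sham, 13.52, 13.77 and 13.88 in WT-CCI and 12.42, 13.10 and 13.32 in WT-Sham. After CCI, 6 of 7 KO arrays lay below every WT array, while after sham 2 of 7 KO arrays lay above every WT array. With injury Mobp rose 1.77-fold in WT (adjusted p = 0.000982), and its log2 change in KO was -0.11 (adjusted p = 0.768). The difference was -0.93 (95% interval -1.44 to -0.42, adjusted p = 0.713), a fold ratio of 0.524 (0.369 to 0.746).

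Cldn11, the claudin that seals the layers of the myelin sheath, rose with injury in both genotypes, 1.59-fold in KO and 2.71-fold in WT. Its log2 signals were 11.16, 12.12 and 12.71 (lowest, median, highest) in KO-CCI, 11.17, 11.36 and 11.58 in KO-Sham, 12.26, 12.45 and 12.73 in WT-CCI and 10.55, 11.14 and 11.25 in WT-Sham. Of 7 KO arrays, 5 lay below all WT arrays after CCI, and 6 lay above all WT arrays after sham. The difference was -0.77 (95% interval -1.21 to -0.34, adjusted p = 0.713).

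Trf, the iron carrier transferrin that oligodendrocytes make in brain, rose 4.34-fold in KO and 6.52-fold in WT, with a difference of -0.59 (-1.06 to -0.11, adjusted p = 0.779). Its signal was 15.05, 15.78 and 16.45 (lowest, median, highest) in KO-CCI, 13.35, 13.68 and 14.06 in KO-Sham, 15.91, 16.35 and 16.49 in WT-CCI and 13.08, 13.59 and 13.86 in WT-Sham, and 4 of 7 KO-CCI arrays lay below all WT-CCI arrays. Mbp and Mog were singled out after their values were seen. Mbp, the main basic protein of myelin, was 11.54 ± 0.31 in KO-CCI, 11.69 ± 0.14 in KO-Sham, 11.95 ± 0.12 in WT-CCI and 11.59 ± 0.14 in WT-Sham (SD, n = 7 each). It was lower in KO after CCI by the test (log2 difference -0.42, adjusted p = 0.049), which no longer passed when any 1 of 25 arrays was left out (adjusted p up to 0.121) or without the 7 arrays (adjusted p = 0.306). Its difference between the injury changes was -0.51 (-0.81 to -0.22, adjusted p = 0.713). Mog, a myelin surface glycoprotein, had -0.62 (-1.06 to -0.18, adjusted p = 0.779), and its rise in WT, 1.41-fold, was not called without WT-CCI replicate 34 or WT-Sham replicate 2 or 25 (adjusted p up to 0.0633) or without the 7 arrays (adjusted p = 0.0991).

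**Figure D4:**
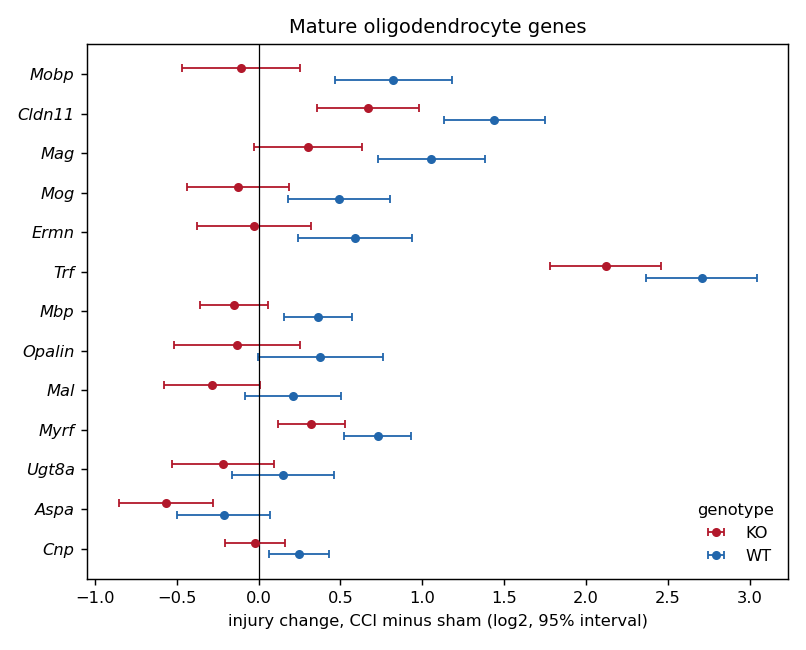
Injury change (CCI minus sham, log2) with its 95% interval for the 13 measured mature oligodendrocyte genes in KO (red) and WT (blue). In every gene the KO point lies left of the WT point, for Mobp at -0.11 against 0.82.

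The oligodendrocyte values held their sign in both runs and without the 7 arrays with high striatal or choroid plexus signal. The list median was -0.40 for title numbers 1 to 24 and -0.68 for numbers 25 to 42, with 13 of 13 genes negative in each. One KO-CCI array, replicate 41, had the lowest list mean, 10.11. Without it the list median was -0.42 and the differences of Mobp, Cldn11, Trf and Mbp were -0.77, -0.62, -0.46 and -0.42. Precursors of oligodendrocytes had a median nearer 0. Of 11 measured precursor genes, 9 had a negative difference, and the median was -0.066 (-0.026 and -0.11 in the runs, and -0.14 without the 7 arrays). Olig2, a transcription factor of the lineage, rose 1.60-fold in KO and 2.0-fold in WT (difference -0.33, -0.83 to 0.17, adjusted p = 0.846), and its difference was -0.65 without the 7 arrays and -0.21 without WT-CCI replicate 36. Vcan, a matrix proteoglycan made by precursors and monocytes, rose 1.16-fold in KO and 1.32-fold in WT (difference -0.19, -0.34 to -0.033, adjusted p = 0.779), with the rise in KO not called without the 7 arrays (adjusted p = 0.0609). Lhfpl3 rose 1.38-fold in KO, a call lost without KO-CCI replicate 22 (adjusted p = 0.0613), and its difference was 0.17 (-0.23 to 0.57, adjusted p = 0.907).

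The 2 largest differences among all list members, Serpina3n and Gfap, were reactive astrocyte genes. Gfap, the intermediate filament that defines reactive astrocytes, rose 8.32-fold with injury in KO and 23.4-fold in WT. Its log2 signals were 14.96, 15.48 and 16.03 (lowest, median, highest) in KO-CCI, 10.86, 12.67 and 13.86 in KO-Sham, 14.69, 15.42 and 16.18 in WT-CCI and 10.77, 10.95 and 11.55 in WT-Sham. After CCI the genotypes overlapped, and after sham 5 of 7 KO arrays lay above every WT array. The difference between the injury changes was -1.49 (95% interval -2.40 to -0.58, adjusted p = 0.744), a fold ratio of 0.356 (0.190 to 0.669). The genotype difference was -0.13 after CCI (adjusted p = 0.941) and 1.36 after sham (adjusted p = 0.0263). The sham call was not made when 1 of KO-Sham replicates 9, 11, 12 and 31 or WT-Sham replicates 2 and 25 was left out (adjusted p up to 0.075), nor without the 7 arrays (adjusted p = 0.0697).

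Serpina3n, a secreted protease inhibitor of reactive astrocytes, had the same layout. It rose 49.3-fold in KO and 142-fold in WT. The signals were 14.77, 15.03 and 15.82 (lowest, median, highest) in KO-CCI, 8.16, 9.38 and 11.69 in KO-Sham, 14.51, 15.52 and 15.71 in WT-CCI and 7.81, 8.11 and 8.74 in WT-Sham, and 6 of 7 KO-Sham arrays lay above every WT-Sham array. The difference was -1.52 (-2.52 to -0.53, adjusted p = 0.779), and its genotype difference after sham was 1.42 (adjusted p = 0.0356). That call too depended on each of 9 sham arrays (KO-Sham replicates 9, 11 and 12, WT-Sham replicates 1, 2, 3, 25, 26 and 27; adjusted p up to 0.0892), and it was not made without the 7 arrays (adjusted p = 0.0948). Vim, another intermediate filament, rose 13.1-fold in KO and 19.7-fold in WT (difference -0.59, -1.18 to 0.001, adjusted p = 0.805), with a difference of -0.96 without the 7 arrays.

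**Figure D5:**
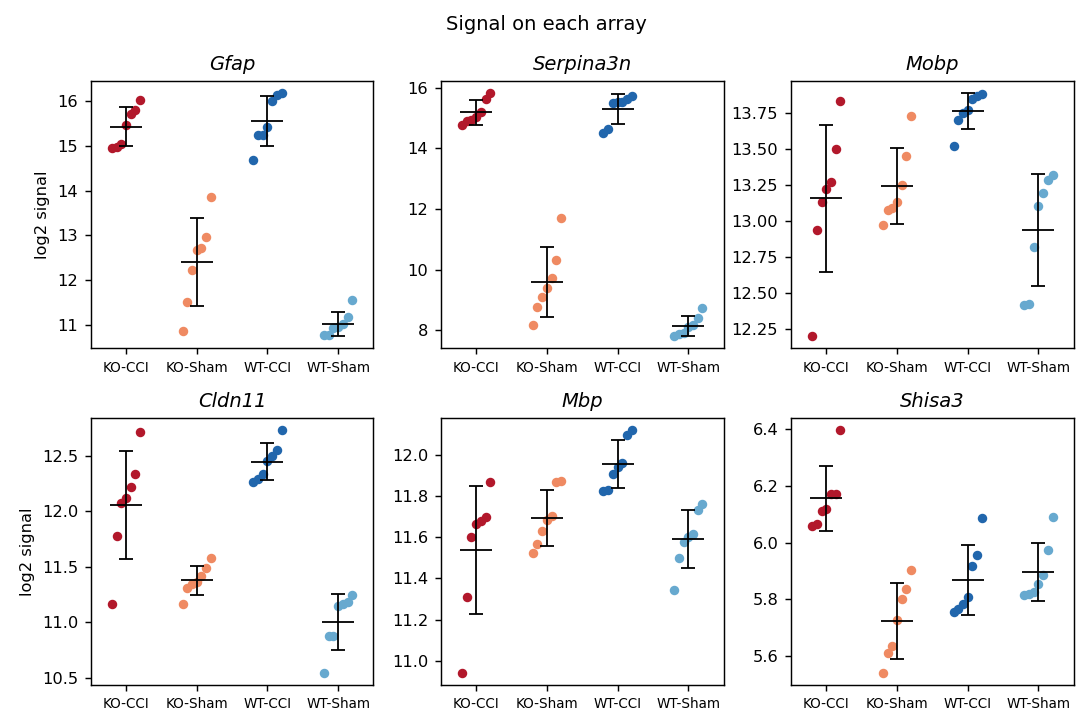
Log2 signal on each array (points) in KO-CCI, KO-Sham, WT-CCI and WT-Sham for Gfap, Serpina3n, Mobp, Cldn11, Mbp and Shisa3, with the mean as a horizontal line and the SD as bars (n = 7 each). Gfap and Serpina3n spread widest in KO-Sham, Mobp, Cldn11 and Mbp spread widest in KO-CCI, and Shisa3 is highest in KO-CCI.

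The reactive astrocyte list as a whole had a median near 0. Of 24 measured members, 15 had a negative difference, 8 of 12 bright members (against 62.0%) and 7 of 12 dim ones (against 33.7%), 2 were negative and 1 positive at an unadjusted p under 0.05, and the median was -0.038. The median injury change was 1.20 in KO and 1.35 in WT. In each genotype 22 of the 24 were called as raised, against 16.7% (KO) and 16.8% (WT) of all clusters called in either direction. The median difference was 0.080 for title numbers 1 to 24, -0.16 for numbers 25 to 42, and -0.12 without the 7 arrays. Homeostatic astrocyte genes, which serve glutamate uptake and ion balance, had 12 of 16 negative and a median of -0.082 (-0.068 and -0.042 in the runs). Aldh1l1, a folate enzyme of astrocytes, rose 1.40-fold in KO and 1.66-fold in WT (difference -0.25, -0.53 to 0.029, adjusted p = 0.819). Slc4a4, a bicarbonate transporter, rose 1.43-fold in KO and 1.52-fold in WT (difference -0.091, -0.29 to 0.11). S100b, a calcium-binding protein, had log2 changes of 0.017 in KO and 0.28 in WT (difference -0.27, -0.55 to 0.013, adjusted p = 0.813). Slc4a4 and S100b had differences of -0.17 and -0.42 without the 7 arrays.

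Endothelial genes, which mark the vessel lining, came after oligodendrocytes by list median. Of 16 measured members, 14 had a negative difference, 6 of them at an unadjusted p under 0.05, and the median was -0.19, with median changes of 0.21 in KO and 0.37 in WT. Here the genotypes parted after CCI and less so after sham (median genotype differences -0.24 and -0.086). Cdh5, the cadherin of endothelial junctions, rose 1.75-fold in KO and 2.21-fold in WT. Its log2 signals were 8.20, 8.69 and 9.05 (lowest, median, highest) in KO-CCI, 7.64, 7.88 and 8.11 in KO-Sham, 8.88, 9.21 and 9.46 in WT-CCI and 7.81, 7.99 and 8.26 in WT-Sham, and 6 of 7 KO-CCI arrays lay below every WT-CCI array. The difference was -0.34 (-0.64 to -0.037, adjusted p = 0.779), and the genotype difference after CCI was -0.49 (adjusted p = 0.0197, 0.0522 without WT-CCI replicate 15 and 0.127 without the 7 arrays).

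Pecam1, an adhesion molecule of endothelial contacts, rose 1.67-fold in KO and 2.02-fold in WT (difference -0.27, -0.49 to -0.053, adjusted p = 0.779). It was lower in KO after CCI by 0.34 on the log2 scale (adjusted p = 0.0228), a call lost without KO-CCI replicate 21 or 41 or WT-CCI replicate 15 (adjusted p up to 0.0574) or without the 7 arrays (adjusted p = 0.0721). Slc2a1, the glucose transporter of the blood-brain barrier, had the smallest p of the list. It rose 1.63-fold in WT, its log2 change in KO was 0.22 (adjusted p = 0.236), and the difference was -0.48 (-0.82 to -0.14, adjusted p = 0.779). Within the runs the endothelial median was -0.29 for title numbers 1 to 24, with 16 of 16 negative, and -0.10 for numbers 25 to 42, with 10 of 16 negative.

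Genes of pericytes and smooth muscle, the cells that surround vessels, had 10 of 13 negative and a median of -0.16, which was -0.17 and -0.016 in the runs and -0.037 without the 7 arrays. Pdgfrb, the receptor that recruits pericytes, had log2 changes of -0.057 in KO and 0.20 in WT and a difference of -0.26 (-0.46 to -0.064, adjusted p = 0.779). Its call in WT was lost without any 1 of 8 arrays (WT-CCI replicates 14, 15 and 16, WT-Sham replicates 1, 3, 25, 26 and 27; adjusted p up to 0.0891) and without the 7 arrays (adjusted p = 0.251). Tagln, an actin-binding protein of smooth muscle, rose 1.52-fold in KO and 1.89-fold in WT (difference -0.31, -0.66 to 0.042, and -0.59 without the 7 arrays). Acta2, smooth muscle actin, had log2 changes of -0.63 in KO and -0.36 in WT, neither called, and its within-run differences were -0.78 and 0.39, with -0.13 without the 7 arrays. Meningeal fibroblast genes had 7 of 13 negative and a median of -0.035, which was 0.095 and -0.029 in the runs and -0.26 without the 7 arrays. Dcn, a collagen-binding proteoglycan, rose 2.32-fold in KO and 2.06-fold in WT, and its difference of 0.17 was -0.27 without the 7 arrays. Ogn, another small proteoglycan, had log2 changes of -1.11 in KO and -1.06 in WT, calls lost without KO-CCI replicate 21 or 40 in KO, and without WT-CCI replicate 13 or 35 or WT-Sham replicate 2 in WT. The call of Ogn in WT was not made without the 7 arrays (adjusted p = 0.332), where its difference was -0.56, against -0.057 with all arrays. Crabp2, which binds retinoic acid, had a difference of 0.14 (-0.065 to 0.35, adjusted p = 0.838), or 0.077 without the 7 arrays.

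Microglia, the resident macrophages of the brain, had a negative difference in 12 of 13 homeostatic genes, with a median of -0.14 (-0.071 and -0.24 in the runs). Csf1r, the receptor for the growth factor on which microglia depend, had the smallest p of that list. Its log2 signals were 9.32, 9.73 and 10.47 (lowest, median, highest) in KO-CCI, 8.86, 9.02 and 9.21 in KO-Sham, 9.30, 10.04 and 10.67 in WT-CCI and 8.67, 8.74 and 8.98 in WT-Sham. The groups overlapped after CCI, and 5 of 7 KO-Sham arrays lay above all WT-Sham arrays. Csf1r rose 1.72-fold in KO and 2.48-fold in WT (difference -0.53, -1.04 to -0.021, adjusted p = 0.792). Fcrls, a receptor-like gene of mouse microglia, rose 7.44-fold in KO and 11.9-fold in WT (difference -0.68, -1.41 to 0.044, adjusted p = 0.813), and Cx3cr1, the fractalkine receptor, rose 2.11-fold in KO and 2.43-fold in WT (difference -0.21, -0.57 to 0.15).

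Genes of phagocytic microglia and macrophages, which clear debris, had 18 of 22 negative (15 of 16 bright and 3 of 6 dim) and a median of -0.16, with median changes of 1.03 in KO and 1.15 in WT. None reached an unadjusted p under 0.05. Ly86, a partner of a Toll-like receptor homologue, rose 10.5-fold in KO and 17.1-fold in WT (difference -0.70, -1.41 to 0.002, adjusted p = 0.805). Lilrb4a, a myeloid receptor that dampens activation, rose 30.3-fold in KO and 38.9-fold in WT (difference -0.36, -0.87 to 0.15). Monocyte and border macrophage genes had 11 of 16 negative and a median of -0.10. Lyz2, lysozyme of myeloid cells, rose 10.8-fold in KO and 12.8-fold in WT, and Cd44, the hyaluronan receptor, rose 4.04-fold in KO and 3.98-fold in WT. The difference of Cd44 was 0.020 (-0.24 to 0.28), beside rises of 2.02 in KO and 1.99 in WT on the log2 scale, and was -0.056 without the 7 arrays.

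The myeloid values depended on which arrays were used. The phagocytic list median was 0.012 for title numbers 1 to 24 and -0.35 for numbers 25 to 42, and the monocyte median was 0.003 and -0.23. Without the 7 arrays with high striatal or choroid plexus signal the phagocytic median was -0.46, the homeostatic median -0.37 and the monocyte median -0.27. The differences of Fcrls, Csf1r, Ly86, Lilrb4a, Lyz2 and Cx3cr1 were then -1.37, -0.97, -1.26, -0.91, -1.03 and -0.53. The part of the sampled tissue and of the runs in these values was not tested. For Lyz2 the difference was 0.34 for numbers 1 to 24 and -1.03 for numbers 25 to 42, so it had no common direction.

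Granulocyte and lymphocyte genes were mostly dim, and their shares of negative differences are to be read against 33.7%. Neutrophil genes had 5 of 16 negative, 1 of 2 bright and 4 of 14 dim ones. Their median of 0.097 was 0.17 for title numbers 1 to 24 and -0.083, with 12 of 16 negative, for numbers 25 to 42. S100a8 and S100a9, which pair as calprotectin in neutrophils, rose 6.05-fold and 2.58-fold in KO and 5.61-fold and 2.39-fold in WT. Their differences, 0.11 (-0.88 to 1.10) and 0.11 (-0.55 to 0.77), had wide intervals and opposite signs in the runs (0.99 and -1.09 for S100a8, 0.55 and -0.50 for S100a9), and S100a9 had 0.37 without the 7 arrays. Trem1, an activating receptor of neutrophils, had the smallest p of the list, with log2 changes of 0.29 in KO (adjusted p = 0.00327) and -0.051 in WT and a difference of 0.35 (0.14 to 0.55, adjusted p = 0.713), all at a mean signal under 5. Lymphocyte genes, none of which was above the median negative control, had 2 of 13 negative and a median of 0.060, which was 0.014 after quantile normalization and 0.051 and 0.074 in the runs. Cd8a, Cd4 and Nkg7, of cytotoxic T cells, helper T cells and killer cells, had differences of 0.14, -0.042 and 0.23 (adjusted p = 0.827, 0.986 and 0.779), and that of Cd4 was 0.068 without the 7 arrays.

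Response programmes that cut across cell types had 11 lists of 12 with a negative median (10 after quantile normalization and 12 with centred arrays), and no member was called. All bright genes together had a median of -0.029, so a negative sign alone does not set a list apart. The medians of synapse (-0.018) and RNA-binding and splicing genes (-0.020), all of them bright, lay near that value. Interferon response (-0.031) and cell death genes (-0.035) were in part dim. Their bright members, 11 of 24 and 12 of 24, had medians of -0.095 and -0.037. For title numbers 1 to 24 only 6 of the 12 medians were negative, for numbers 25 to 42 10 were, and 8 had opposite signs in the runs. Complement, the opsonising cascade, had 10 of 14 negative (9 of 9 bright and 1 of 5 dim) and a median of -0.092, which was 0.019 and -0.19 in the runs and -0.38 without the 7 arrays. C1qb, a chain of the initiating complex, rose 5.88-fold in KO and 8.41-fold in WT (difference -0.52, -1.17 to 0.14, -1.12 without the 7 arrays and -0.33 without WT-CCI replicate 36), and C4b, the next component, 5.78-fold in KO and 8.05-fold in WT (difference -0.48, -0.98 to 0.019, adjusted p = 0.812). Itgam, the alpha chain of complement receptor 3, was 9.58 ± 0.24 in KO-CCI, 7.86 ± 0.18 in KO-Sham, 9.74 ± 0.25 in WT-CCI and 7.59 ± 0.096 in WT-Sham. It rose 3.29-fold in KO and 4.46-fold in WT (difference -0.44, -0.74 to -0.13, adjusted p = 0.779), with -0.39 and -0.49 in the runs and -0.66 without the 7 arrays.

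Cell cycle genes had 20 of 23 negative, 5 of 5 bright and 15 of 18 dim ones (against 62.0% and 33.7%), and a median of -0.14. All 23 were called as raised by injury in both genotypes, against 16.7% (KO) and 16.8% (WT) of all clusters called in either direction. Mki67, a marker of dividing cells, rose 8.36-fold in KO and 10.7-fold in WT (difference -0.36, -1.10 to 0.38). Top2a, the topoisomerase of replicating cells, rose 3.71-fold in KO and 4.59-fold in WT (difference -0.31, -0.82 to 0.21), and Cdk1, the mitotic kinase, 1.35-fold in KO and 1.49-fold in WT (difference -0.14, -0.32 to 0.043, adjusted p = 0.829). The list median was -0.12 and -0.20 in the runs. It was -0.29 without the 7 arrays, with 23 of 23 negative, and the differences of Mki67, Top2a and Cdk1 were -0.89, -0.74 and -0.23. Without single arrays the difference of Mki67 lay between -0.64 and -0.19. Cdkn1a, the p53 target that halts the cycle, rose 1.72-fold in KO and 2.40-fold in WT (difference -0.48, -0.92 to -0.046, adjusted p = 0.780), and Casp8, the initiator caspase of death receptors, 2.66-fold in KO and 3.18-fold in WT (difference -0.26, -0.58 to 0.057, and -0.49 without the 7 arrays). Over the 24 measured cell death and p53 target genes 15 were negative, with a median of -0.035, which was 0.053 and -0.12 in the runs and -0.086 without the 7 arrays.

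Cytokine and chemokine genes had 17 of 27 negative and a median of -0.078, which was 0.006 and -0.15 in the runs and -0.14 without the 7 arrays. Ccl12, which attracts monocytes, rose 20.2-fold in KO and 24.3-fold in WT, and Ccl9, a chemokine of mouse macrophages, 2.67-fold in KO and 3.17-fold in WT. Their differences of -0.26 and -0.25 had intervals across 0 and were -0.63 and -0.51 without the 7 arrays. Lif, a cytokine of the interleukin 6 family that acts on astrocytes, went the other way. Its log2 signals were 5.06, 5.13 and 5.22 (lowest, median, highest) in KO-CCI, 4.82, 4.88 and 4.94 in KO-Sham, 4.89, 5.06 and 5.21 in WT-CCI and 4.97, 5.05 and 5.23 in WT-Sham, so that all 7 KO-Sham arrays lay below all WT-Sham arrays. It rose 1.20-fold in KO, its fold in WT was 1.01, and the difference was 0.25 (0.12 to 0.39, adjusted p = 0.713), at signals below the median negative control. Lif was lower in KO after sham (-0.20, adjusted p = 0.0345), which depended on each of 9 sham arrays (KO-Sham replicates 9, 10, 11, 12 and 33, WT-Sham replicates 2, 3, 4 and 27; adjusted p up to 0.093).

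The receptors for such cytokines had 13 of 21 negative and a median of -0.072 (-0.061 and -0.093 in the runs). Osmr, the oncostatin M receptor, rose 4.42-fold in KO and 5.56-fold in WT (difference -0.33, -0.69 to 0.020). Il13ra1, a chain of the interleukin 13 receptor, rose 2.55-fold in KO and 3.10-fold in WT (difference -0.28, -0.52 to -0.040, adjusted p = 0.779), and Il4ra, its partner, 2.77-fold in KO and 3.21-fold in WT (difference -0.21, -0.51 to 0.083). Il13ra1 and Il4ra had differences of -0.45 and -0.49 without the 7 arrays. Interferon response genes had 14 of 24 negative and a median of -0.031 (-0.023 and -0.039 in the runs, and -0.11 without the 7 arrays). Ifitm3, which blocks viral entry, rose 5.63-fold in KO and 8.25-fold in WT (difference -0.55, -1.20 to 0.094), its relative Ifitm2 3.87-fold in KO and 3.53-fold in WT (0.13, -0.30 to 0.56), and without the 7 arrays these differences were -0.90 and 0.22. Xaf1, an interferon-induced factor of cell death, rose 1.72-fold in WT, with a log2 change of 0.37 in KO (adjusted p = 0.0552) and a difference of -0.41 (-0.79 to -0.029, adjusted p = 0.782). In antigen presentation 9 of 13 were negative, with a median of -0.044, which was 0.027 and -0.15 in the runs and -0.15 without the 7 arrays. Ctss, a protease that trims the invariant chain, rose 3.26-fold in KO and 4.26-fold in WT (difference -0.39, -0.88 to 0.11). B2m, the light chain of class I molecules, rose 1.66-fold in KO and 1.97-fold in WT, and H2-DMb1, a class II peptide loader, 1.44-fold in KO and 1.64-fold in WT. The differences of Ctss, B2m and H2-DMb1 without the 7 arrays were -0.75, -0.73 and -0.41, against -0.39, -0.24 and -0.18 with all arrays.

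Matrix and wound repair genes had 15 of 21 negative and a median of -0.11 (-0.038 and -0.15 in the runs). In each genotype 20 were called as raised, against 16.7% (KO) and 16.8% (WT) of all clusters called in either direction. Tnc, the matrix glycoprotein tenascin C of wounds, had the smallest p. It rose 3.17-fold in KO and 4.46-fold in WT (difference -0.49, -0.91 to -0.072, adjusted p = 0.779), with -0.41 and -0.65 in the runs and -0.91 without the 7 arrays. Tgfbi and Lgals1, a matrix protein and a galectin, rose 8.89-fold and 6.34-fold in KO and 10.9-fold and 7.64-fold in WT, with differences of -0.30 and -0.27 that were above 0 for title numbers 1 to 24 and -0.86 and -0.84 without the 7 arrays. Iron, haem and oxidative stress genes had 12 of 18 negative and a median of -0.066, which was 0.036 and -0.19 in the runs and -0.15 without the 7 arrays. Hmox1, the inducible haem oxygenase, rose 33.2-fold in KO and 35.9-fold in WT (difference -0.11, -0.77 to 0.54), Gpx1, a peroxidase, 2.93-fold in KO and 3.37-fold in WT, and Slc11a1, a metal transporter of phagosomes, 1.69-fold in KO and 2.01-fold in WT (difference -0.25, -0.50 to -0.006, adjusted p = 0.804). Leaving out the 7 arrays gave -0.66 for Hmox1, -0.55 for Gpx1 and -0.47 for Slc11a1.

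Neuronal genes were next. Excitatory neuron genes had 12 of 16 negative and a median of -0.074 (injury changes -0.40 in KO and -0.32 in WT), and inhibitory neuron genes 10 of 18 and -0.018 (-0.32 in KO and -0.36 in WT), a median that was 0.019 after quantile normalization. Within the runs the excitatory median was -0.079 and -0.042 and the inhibitory median -0.037 and 0.073, and the inhibitory median was 0.035 without the 7 arrays. Lamp5, of upper-layer and inhibitory neurons, fell by 1.34 on the log2 scale in KO and fell by 1.48 in WT (difference 0.14, -0.18 to 0.45). Rorb, a layer 4 transcription factor, fell by 0.96 in KO and fell by 0.75 in WT (difference -0.20, -0.57 to 0.16). These differences were 0.26 and -0.33 without the 7 arrays. Emx1, a cortical homeobox factor, had a difference of 0.13 (-0.009 to 0.28). Erbb4 and Kcnc2, a receptor and a fast potassium channel of interneurons, fell by 0.72 and 0.61 in KO and fell by 0.66 and 0.62 in WT, and the interval of the Kcnc2 difference ran between -0.25 and 0.27. Without the 7 arrays the differences of Erbb4 and Kcnc2 were 0.034 and 0.036, against -0.053 and 0.010 with all arrays.

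Pvalb, the calcium buffer of fast-spiking interneurons, stood apart within its list. The log2 signals were 7.73, 7.95 and 8.45 (lowest, median, highest) in KO-CCI, 8.14, 8.49 and 8.56 in KO-Sham, 8.22, 8.41 and 8.66 in WT-CCI and 8.09, 8.38 and 8.84 in WT-Sham, and 5 of 7 KO-CCI arrays lay below all WT-CCI arrays. It fell by 0.35 in KO (adjusted p = 0.0305, lost without any 1 of 8 KO arrays, KO-CCI replicates 22, 23, 40 and 41 and KO-Sham replicates 10, 12, 32 and 33, up to 0.0807, and 0.178 without the 7 arrays), its change in WT was 0.021, and the difference was -0.37 (-0.70 to -0.045, adjusted p = 0.779), or -0.25 without the 7 arrays.

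Synapse genes had 12 of 20 negative and a median of -0.018, but the direction turned between the runs, with 16 negative and a median of -0.098 for title numbers 1 to 24 and 3 negative and a median of 0.067 for numbers 25 to 42. The median without the 7 arrays was -0.059. The postsynaptic scaffolds Shank1 and Homer1 fell by 0.81 and 0.68 in KO and fell by 0.80 and 0.63 in WT, with a Shank1 difference of -0.018 that was -0.17 without the 7 arrays, and Nlgn1, a synaptic adhesion molecule, fell by 0.30 in KO and fell by 0.41 in WT (difference 0.11, -0.058 to 0.28). Activity-dependent transcription genes had 8 of 18 negative and a median of 0.031, or -0.004 with centred arrays, 0.034 and -0.040 in the runs and -0.069 without the 7 arrays. Npas4, an activity-induced factor of neurons, fell by 1.40 in KO and fell by 1.41 in WT, with a wide interval of the difference (-0.81 to 0.83). Nr4a1, an orphan nuclear receptor, fell by 1.17 in KO (adjusted p = 0.0534 without KO-Sham replicate 12) and fell by 1.46 in WT (adjusted p = 0.0916 without the 7 arrays), and its difference of 0.29 was -0.069 without the 7 arrays. Bdnf, a neurotrophin, fell by 0.29 in WT, with a change of -0.099 in KO and a difference of 0.20 (0.033 to 0.36, adjusted p = 0.779). RNA-binding and splicing genes, the class of Rbm5 itself, had 16 of 28 negative and a median of -0.020, or 0.018 after quantile normalization, -0.061 and 0.006 in the runs and -0.041 without the 7 arrays. Ptbp1, a splicing repressor of dividing cells, rose 1.65-fold in KO and 1.89-fold in WT (difference -0.19, -0.38 to 0.002, adjusted p = 0.809), and Nova1, a neuronal splicing factor, fell by 0.69 in KO and fell by 0.61 in WT, with a difference of -0.090 that was 0.093 without the 7 arrays.

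Striatal and choroid plexus genes, which trace the sampled tissue, had 8 of 11 negative with a median of -0.059 and 1 of 10 negative with a median of 0.20. No member of either list was called for injury in either genotype. Drd2 and Rgs9, a dopamine receptor and its signalling regulator in striatum, had differences of -0.15 and -0.43 with intervals of -2.22 to 1.91 and -2.0 to 1.14. Ttr, the thyroid hormone carrier of choroid plexus, had 0.62 (-3.25 to 4.50), Clic6, an anion channel protein, 0.17 (-0.76 to 1.11), and Kcne2, a potassium channel subunit, 0.32 (0.008 to 0.63, adjusted p = 0.804). In the runs the striatal median was -0.37 and 0.15 and the choroid plexus median -0.17 and 0.74. Without the 7 arrays, which were chosen by these lists, the medians were 0.16 and 0.050, and Drd2, Rgs9 and Ttr had 0.31, 0.027 and 0.33.

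The 10 named genes with the smallest p for the difference included 5 negative and 5 positive ones, and 7 of the 10 were dimmer than the median negative control. Mobp and Lif are described above. Shisa3, which holds back Wnt and FGF receptors, had the smallest p among them. On the log2 scale its signals were 6.06, 6.12 and 6.40 (lowest, median, highest) in KO-CCI, 5.54, 5.73 and 5.90 in KO-Sham, 5.76, 5.81 and 6.09 in WT-CCI and 5.82, 5.86 and 6.09 in WT-Sham. Of 7 KO arrays, 5 were above all WT arrays after CCI and 5 were below all WT arrays after sham. Shisa3 rose 1.34-fold in KO (adjusted p = 2.49e-05), its change in WT was -0.027, and the difference was 0.45 (95% interval 0.26 to 0.65, unadjusted p = 3.99e-05 by limma, adjusted p = 0.634), with 0.50 and 0.41 in the runs. It was higher in KO after CCI (0.29, adjusted p = 0.0331), which no longer passed when 1 of KO-CCI replicates 40 and 41 or WT-CCI replicates 13 to 16 was left out (adjusted p up to 0.0883), nor without the 7 arrays (adjusted p = 0.388).

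Dnm2, the dynamin that cuts endocytic vesicles in most cells, was among the 3 bright genes. It was 10.50 ± 0.091 in KO-CCI, 10.12 ± 0.070 in KO-Sham, 10.68 ± 0.10 in WT-CCI and 10.03 ± 0.043 in WT-Sham (SD, n = 7 each), and rose 1.30-fold in KO and 1.57-fold in WT. Its difference was -0.27 (-0.41 to -0.13, adjusted p = 0.713), with -0.25 and -0.29 in the runs. Rpl34-ps1 has the symbol of a ribosomal protein pseudogene but is protein-coding in the annotation used, and it is open to signal from its parent gene. It rose 1.5-fold in WT, with a log2 change of 0.095 in KO and a difference of -0.49 (-0.74 to -0.24, adjusted p = 0.713). Abi3, an actin regulator of microglia, rose 1.19-fold in KO and 1.46-fold in WT (difference -0.29, -0.45 to -0.13). Cyp2j12, a cytochrome P450, rose 1.29-fold in WT, with a change of -0.058 in KO and a difference of -0.42 (-0.66 to -0.19). It was lower in KO after CCI (-0.37, adjusted p = 0.0232), a call lost without KO-CCI replicate 22 or 41 or WT-CCI replicate 13 (adjusted p up to 0.0642) or without the 7 arrays (adjusted p = 0.0859).

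Tmc1, a channel of sensory hair cells, Esp3, a secreted gland peptide, and Olfr926, an olfactory receptor, gave the remaining positive differences of 0.26, 0.43 and 0.51 (adjusted p = 0.713 each), at mean signals below 5. Tmc1 was lower in KO after sham (-0.31, adjusted p = 0.000423), with all 7 KO-Sham arrays below all WT-Sham arrays, a call kept without any 1 array. Its change was 0.044 in KO and -0.22 in WT. Over all 88 genes named by rule, 62 had a negative and 26 a positive difference. Many of them were chosen for a small p of this same difference, so nothing is read from this split, nor from the 49 that changed less in KO among the 60 called for injury in both genotypes in 1 direction.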

How the data were processed

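Cortical RNA (100 ng per animal, per the labels' protocols) of 28 mice was measured on MTA 1.0 arrays. The authors deposited log2 signals (read from the values, which lay between 2.17 and 19.93). Their normalization is not stated in those labels, and no further normalization was applied. Of 72688 clusters, 6732 controls were left out. The supplied annotation listed 32750 of the rest, and names were updated through RefSeq's GRCm38.p6 table. A gene with several clusters was represented by its brightest.

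The test was limma's lmFit and eBayes (limma 3.58.1, R 4.3.3) on 4 groups with sex as an additive term, adjusted over 65956 clusters by Benjamini-Hochberg and called at an adjusted p under 0.05. Intervals are 95% limits of the fit. Figures used Python 3.11.15, pandas 2.3.3 and matplotlib 3.10.9. On simulated data, 3 of 65756 unchanged clusters were called. Arrays give no sequencing depth, so precision is set by how many there are.

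The comparison and the gene lists were chosen with earlier results of these data known. Named genes are the 10 with the smallest p for the difference, in each list the 2 members with the largest mean injury change and the 1 with the smallest p, and Rbm5. Only genes listed as protein-coding, 18141 of 30610, could be singled out by this rule or enter the strongest responders. Predicted models (Gm and Rik), small RNAs and other noncoding genes were left out of both. Within-run values in the report are differences of plain group means. Alternatives were other sex terms, the runs, scalings, filters, variance models, thresholds and omitted arrays, and 1 filter (clusters brighter than the median negative control) was added after the data were seen.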

Additional observations from a re-analysis of the deposited data

Results flagged for a closer look

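Of 400 groups of 7 arrays examined (100 values in each of 4 groups), 25 held 1 array far from the others by Dixon's test, where chance gives about 1 in 20 groups. No explanation was weighed. Several fell on arrays with high choroid plexus or striatal signal. On KO-CCI replicate 40, Ttr was 15.87 (nearest other array 9.32), Clic6 7.35 (5.89), Kcne2 7.94 (7.27) and the choroid plexus list mean 7.70 (6.12). On WT-Sham replicate 25, Clic6 was 7.30 (5.57), the choroid plexus list mean 7.80 (6.51), Homer1 12.07 (12.40) and Dnm2 9.95 (10.03). On WT-CCI replicate 35, S100b was 9.70 (10.03), Top2a 6.48 (7.41) and Shank1 11.60 (12.63). Neutrophil genes were high on WT-Sham replicate 2, with S100a8 at 7.02 (5.01) and S100a9 at 7.79 (6.43), and S100a8 was low on KO-CCI replicate 21 at 6.53 (7.15).

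Among the other genes, Shisa3 was 6.40 on KO-CCI replicate 41 (6.17), Cd44 8.28 and Il4ra 8.77 on KO-CCI replicate 42 (8.01 and 8.45), Cyp2j12 6.52 on KO-Sham replicate 32 (6.33), Rorb 12.55 on KO-Sham replicate 11 (12.27), Ccl12 5.37 on KO-Sham replicate 31 (4.93), Naca 11.57 on KO-Sham replicate 12 (11.45) and Bdnf 5.71 on WT-CCI replicate 13 (5.63). On WT-Sham replicate 26, Casp8 was 7.21 (7.03) and the endothelial list mean 8.88 (8.74), and Trem1 was 5.25 on WT-Sham replicate 3 (4.91).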

How the results depend on the processing

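Over 43 alternatives, 28 of which left out 1 array each, the count of clusters called for the difference between the injury changes stayed at 0 in 42 and was 1 when only clusters with 1 named gene were tested, where 4930548J01Rik had an adjusted p of 0.0468. The count at an unadjusted p under 0.05 ran between 3417 and 5550 without single arrays and was 5614 without the 7 arrays with high striatal or choroid plexus signal. With the strongest responders chosen anew in each alternative, the number of raised genes with a smaller change in KO ran between 88 and 94 without single arrays (median difference -0.34 to -0.19) and was 72 within title numbers 1 to 24 and 96 within numbers 25 to 42. The mature oligodendrocyte median ran between -0.63 and -0.42 without single arrays. The reactive astrocyte median ran between -0.078 and -0.003 and moved by more than 1.5 times without any 1 of 9 arrays (KO-CCI replicates 23, 41 and 42, KO-Sham replicate 12, WT-CCI replicates 15, 16 and 35, WT-Sham replicates 2 and 25), and the phagocytic median ran between -0.22 and -0.098, the value without WT-CCI replicate 36. Of the 88 genes named by rule, 40 had a difference that moved by more than 1.5 times without at least 1 single array. Of the calls named genes had for other contrasts, leaving out the 7 arrays ended 5 of 6 for genotype after CCI, 2 of 6 for genotype after sham, 2 of 68 for injury in KO and 8 of 77 for injury in WT. Of 93 genes followed, 67 kept the sign of their difference in all of the alternatives that gave a value and 26 did not; the cause was not tested.

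Without single arrays the sign changed for 13 genes, whose lowest and highest differences were -0.036 and 0.070 for Cd44, -0.056 and 0.065 for Kcnc2, -0.22 and 0.062 for Shank1, -0.25 and 0.42 for S100a8, -0.12 and 0.27 for S100a9, -0.64 and 0.33 for Drd2, -0.16 and 0.26 for Npas4, -0.30 and 0.19 for Ogn, -0.45 and 1.62 for Ttr, -0.086 and 0.42 for Clic6, -0.13 and 0.037 for Homer1, -0.14 and 0.081 for Cd4 and -0.28 and 0.020 for Hmox1. Fitted on title numbers 1 to 24 alone, with the sex term, the differences with changed sign were 0.34 for Lyz2, 0.032 for Cd4, -0.061 for Kcnc2, -0.53 for Ttr, -0.49 for Clic6, 0.024 for Ccl12, 0.064 for Ccl9, 0.15 for Tgfbi, 0.043 for Lgals1 and 0.016 for Hmox1. On numbers 25 to 42 alone they were 0.065 for Slc4a4, -0.17 for Cd44, -1.11 for S100a8, -0.53 for S100a9, 0.48 for Acta2, -0.0015 for Dcn, 0.56 for Drd2, 0.066 for Rgs9, -0.084 for Ifitm2, 0.47 for Shank1, 0.30 for Homer1 and -0.18 for Npas4. Without the 7 arrays they were -0.056 for Cd44, 0.068 for Cd4, -0.27 for Dcn, 0.034 for Erbb4, 0.31 for Drd2, 0.027 for Rgs9, -0.069 for Nr4a1 and 0.093 for Nova1. Centring gave -0.015 for Cd44, -0.026 for Kcnc2 and -0.024 for Npas4, array quality weights -0.0031 for Kcnc2 and 0.0087 for Drd2, separate means for each sex -0.017 for Kcnc2 and -0.020 for Npas4, and no sex term -0.0041 for Npas4. No paired analysis was possible because the groups share no title number.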

Other observations

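Ribosomal protein genes, which no list held, were examined after values of Rps3a1 and Naca had been seen, so they are given as a description. Of 37 named cytosolic ribosomal protein genes, 35 had a negative difference, 17 of them at an unadjusted p under 0.05 and none called. The median injury change was 0.31 in KO and 0.47 in WT, and the median difference -0.19. In 35 of the 37 the signal was higher in KO after sham (median 0.17), and the median genotype difference after CCI was -0.006. Rps3a1, a protein of the small subunit, was 13.26 ± 0.094 in KO-CCI, 13.04 ± 0.083 in KO-Sham, 13.33 ± 0.059 in WT-CCI and 12.87 ± 0.064 in WT-Sham (SD, n = 7 each), and rose 1.16-fold in KO and 1.38-fold in WT (difference -0.24, -0.38 to -0.11, adjusted p = 0.713). Naca, a chaperone at the ribosome's exit, rose 1.20-fold in KO and 1.43-fold in WT (difference -0.24, -0.38 to -0.11, adjusted p = 0.713), and was higher in KO after sham (0.22, adjusted p = 0.014, 0.0514 without KO-Sham replicate 12).

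Large families of sensory and epidermal genes that lie below the negative controls had small positive medians in the values as deposited. Of 1072 olfactory receptor genes 683 had a positive difference (median 0.052), of 299 vomeronasal receptor genes 175 did (median 0.035), and of 97 keratin and keratin-associated genes 70 did (median 0.054). After quantile normalization these medians were 0.005, -0.008 and 0.007, so the vomeronasal direction turned and the others came close to 0, and that of the ribosomal protein genes was -0.17. The median log2 signals of the sensory and epidermal families were 4.22, 4.36 and 4.72. The smallest adjusted p of the whole table, 0.198, belonged to 4930548J01Rik on chromosome 17, a transcript outside the rule for naming, with a mean signal of 4.59 and log2 changes of 0.20 in KO and -0.23 in WT.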
